A study of Mus musculus with 3 samples.

Results

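The interferon-inducible p200 genes described here are Aim2, Pyhin1, Ifi204, Mnda, Ifi203 and Ifi205, 6 of the 22350 protein-coding genes annotated on mouse chromosomes 1 to 19 and X (mm9 coordinates, GENCODE M1 symbols). They were picked by symbol as members of the p200 cluster on chromosome 1. The rule uses no measured value, but it was written with earlier results of these data known. The data were ChIP-Seq tags obtained with an Abcam antibody against RNA Pol_II phosphorylated at Ser5 of its C-terminal repeat, together with input DNA. All cells were primary bone marrow-derived macrophages of female Fvb mice (Fvb/Hsd in the study's methods), on the seventh day of differentiation in L929-conditioned medium. There were 3 groups of 1 library each, namely untreated Ser5, Ser5 after 2 h of lipopolysaccharide (LPS) at 10 ng/ml, and input from untreated cells. With 1 library per group no test was possible, and every interval given below is a 95% interval for counting error alone, which leaves out variation between cultures, mice and ChIP experiments. The number of mice behind a library is not given in the sources used here.

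The p200 proteins carry a HIN domain that binds DNA and, in most of them, a pyrin domain through which they meet other proteins. Aim2 senses double-stranded DNA in the cytosol and recruits the adaptor Pycard (ASC) to form an inflammasome that activates caspase-1, whereas p204, the product of Ifi204, is related to the human DNA sensor IFI16. LPS acts on macrophages through Tlr4, and one branch of this pathway leads to interferon-β, whose receptor in turn drives many interferon-induced genes. Pol_II phosphorylated at Ser5 is found from the start of transcription into the body of transcribed genes. The p200 genes are similar copies that lie side by side, and their number and content are known to differ between inbred mouse strains.

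After LPS, 5 of the 6 p200 genes had at least 2 times more Ser5 over the gene body than in untreated cells, and none had 2 times less. Ifi204 led with 6.89 times, followed by Pyhin1, Ifi205, Mnda and Ifi203, while Aim2 stood just under the rule at 1.90 times. The share of genes past the same rule among the 17386 protein-coding genes that reached 10 tags in the Ser5 libraries together was 5.82% for higher and 11.2% for lower. The median ratio was 3.96 over the 6 members and 0.873 over all genes tested, so most genes lay slightly below 1 on this scale. Ser5 after LPS was above input by more than the counting interval for all members except Ifi205, for which it was 1.21 times (0.495 to 2.93) the input.

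Each tag was counted at its 5′ end, TPM means tags scaled to a library total of 1000000 on the autosomes and X, and density means TPM per kb. The libraries held 7616771 tags for untreated Ser5, 6249819 for LPS Ser5 and 7533308 for input, and counting 1 tag per position and strand would keep between 81.4% and 84.5% of them. Comparisons with input depend on this scaling, since part of each Ser5 library lies in peaks. Divided by the tags outside the deposited peaks instead, 3822762 for untreated Ser5, 2915335 for LPS Ser5 and 7190675 for input, every ratio of Ser5 to input is higher, whereas the log2 ratio of LPS to untreated moves by only 0.11 in all genes alike. Of the macrophage markers, 8 of 9 were found in the annotation, and all 8 had at least 2 times the input density in untreated cells, as did 7 after LPS. None of the 4 fibroblast and none of the 4 B cell markers reached 2 times the input TPM per kb in either Ser5 library, but 2 of the 4 T cell markers (Cd3d and Lck) did so in both and the neutrophil marker Camp did so after LPS. Ccl5, a chemokine gene strongly induced by LPS, had 24 tags in the untreated and 7801 in the LPS library, 396 times on the TPM scale, in the direction of the labels.

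A property of the files bears on every value below. The tags were 45 bases long in the untreated, 36 in the input and 30 in the LPS library, which is the reverse of the order that the study's methods give for the Ser5 libraries. The authors kept reads that matched mm9 at a single place with at most 2 mismatches, and a longer tag can be placed in more of a repeated gene. Across the 881 kb that hold the cluster and 100 kb on each side, 39.0% of start positions were unique by this rule at 30 bases, 44.2% at 36 bases and 50.8% at 45 bases. Aim2 was unique at 88.1% of its start positions at 30 bases, Ifi205 at 24.1%, Ifi204 at 23.1%, Pyhin1 at 15.8%, Ifi203 at 8.63% and Mnda at 3.06%. At 45 bases the shares were higher for every member, 93.4% for Aim2, 34.2% for Ifi204, 31.8% for Ifi205, 28.1% for Pyhin1, 19.5% for Ifi203 and 7.24% for Mnda. At 30 bases, between 93.7% and 99.6% of the repeated positions of the 5 members other than Aim2 had another match inside these 881 kb. For Aim2 the share was 40.4%, and matches elsewhere in the genome were not counted separately. The tag length thus gave the untreated library more countable positions than the LPS library in each of these genes. The reads came from Fvb/Hsd mice and were placed on the mm9 reference, which is of another strain, and the part of strain differences was not tested. Of the tags in the interval, 91.5% of the untreated, 87.3% of the LPS and 91.8% of the input lay at starts that were unique on the reference at the length of the tag. In the LPS library this share differed widely between the gene bodies of the members. It was 738 of 751 tags in Aim2, 11 of 12 in Ifi205 and 105 of 147 in Ifi204. It was lower in Ifi203 (38 of 64), Pyhin1 (35 of 66) and Mnda (12 of 25). The source of the tags at repeated starts was not tested.

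**Figure D1:**
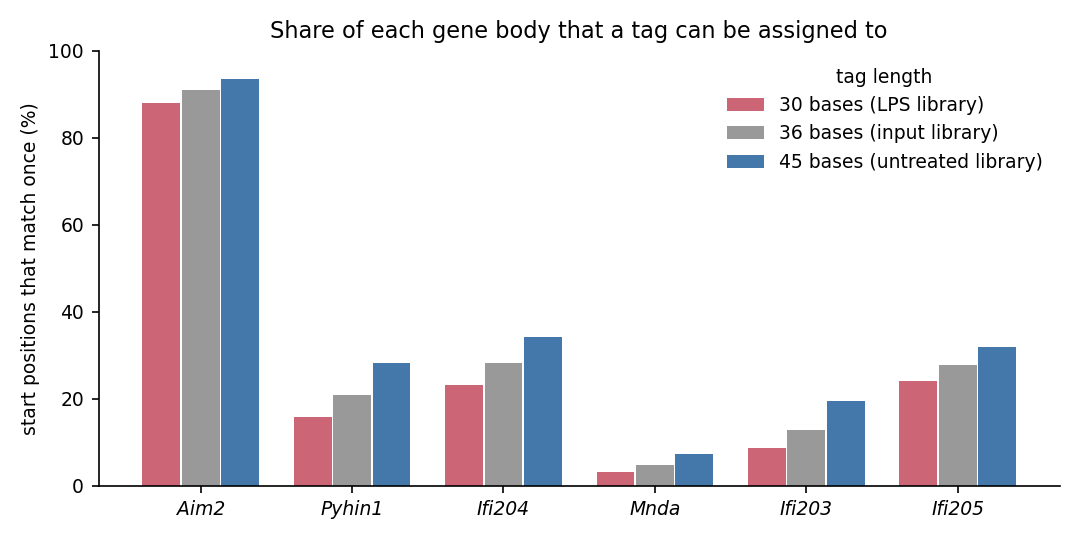
Share of start positions on both strands (y axis, percent) from which a tag of 30, 36 or 45 bases matches mm9 at a single place with at most 2 mismatches, for the gene body of each p200 gene. Aim2 stands at 88.1% or more at each length, and the other 5 genes stay at 34.2% or less, with Mnda lowest at 3.06% to 7.24%.

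The sequences before the start sites are shown because Ser5 peaks lay there in 4 members and because 3 of the members share nearly the same promoter. Each window holds the 250 bases before the annotated start with the most Ser5 tags, read 5′ to 3′ on the strand of the gene from the mm9 reference, and for Aim2 it ends where an annotated exon begins, after 223 bases. Capitals mark the motifs searched on both strands, which were the interferon-stimulated response element (ISRE) core GAAANNGAA, an NF-kB motif GGGANNTTC, a PU.1 and ETS core GAGGAAG, the TATA box TATAAA and the gamma-activated site TTCNNNGAA. No motif found overlapped another. The windows are chr1:175697051-175697300 on the minus strand for Ifi204, chr1:175843054-175843303 on the minus strand for Mnda and chr1:175961887-175962136 on the minus strand for Ifi205. Those for Aim2 and Pyhin1 are chr1:175350479-175350701 and chr1:175560740-175560989, both on the plus strand.
Ifi204: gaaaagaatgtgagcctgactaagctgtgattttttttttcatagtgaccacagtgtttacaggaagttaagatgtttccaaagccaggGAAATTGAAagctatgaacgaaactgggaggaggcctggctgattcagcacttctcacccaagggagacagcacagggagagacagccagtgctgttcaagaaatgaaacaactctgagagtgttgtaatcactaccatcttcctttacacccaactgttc
Mnda: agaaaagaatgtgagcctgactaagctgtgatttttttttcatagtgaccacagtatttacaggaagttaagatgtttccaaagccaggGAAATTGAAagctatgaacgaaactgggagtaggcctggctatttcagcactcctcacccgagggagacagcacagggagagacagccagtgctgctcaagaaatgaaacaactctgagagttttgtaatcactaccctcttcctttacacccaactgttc
Ifi205: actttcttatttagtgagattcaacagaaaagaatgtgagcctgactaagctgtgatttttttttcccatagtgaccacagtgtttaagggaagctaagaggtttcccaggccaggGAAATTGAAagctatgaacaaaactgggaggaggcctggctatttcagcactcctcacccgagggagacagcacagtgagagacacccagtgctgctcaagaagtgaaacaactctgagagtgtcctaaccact
Aim2: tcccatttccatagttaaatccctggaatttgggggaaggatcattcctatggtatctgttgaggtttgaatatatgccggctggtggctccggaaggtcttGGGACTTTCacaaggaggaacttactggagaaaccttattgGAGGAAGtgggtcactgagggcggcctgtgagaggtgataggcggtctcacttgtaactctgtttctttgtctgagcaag
Pyhin1: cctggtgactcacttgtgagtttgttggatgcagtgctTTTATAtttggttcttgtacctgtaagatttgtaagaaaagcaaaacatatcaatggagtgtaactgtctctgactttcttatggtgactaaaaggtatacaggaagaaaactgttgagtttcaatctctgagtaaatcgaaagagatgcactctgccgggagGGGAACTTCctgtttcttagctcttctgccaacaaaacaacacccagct

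The windows of Ifi204 and Mnda were identical at 240 of 249 aligned bases (96.4%), those of Ifi204 and Ifi205 at 204 of 223 (91.5%) and those of Ifi205 and Mnda at 207 of 223 (92.8%). No other of the 15 pairs of members aligned over 200 bases or more. The ISRE core stood in these 3 members and in no other member, from base −161 to −153 in Ifi204 and in Mnda and from −134 to −126 in Ifi205, counted from the start site. Because the 3 windows are near copies, these are not independent occurrences, and 7.56% of 22345 promoters of the same length held the motif. The NF-kB motif was found in Aim2 (−148 to −140) and in Pyhin1 (−49 to −41), against 3.22% of all promoters. The PU.1 and ETS core was found in Aim2 (10.6% of all promoters) and the TATA box on the minus strand of the Pyhin1 window (12.3%), whereas the gamma-activated site was in none of the 6 windows (6.83%). The shares of all promoters were taken at the outermost annotated start of each gene. Among the members, only the Aim2 window lay at another start. The window of Ifi203, not printed, held none of the 5 motifs, and a match or its absence is a description of these letters only.

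Ifi204 (chr1:175677424-175697050, minus strand, 19.63 kb) had 26 tags in untreated Ser5, 147 in LPS Ser5 and 24 in input over its gene body. The LPS library was high and the other two were alike. The densities were 0.174 (0.114 to 0.255), 1.20 (1.01 to 1.41) and 0.162 (0.104 to 0.242) TPM per kb, and LPS Ser5 was 6.89 times (4.52 to 10.9) untreated Ser5. This ratio was above that of 99.5% of the genes tested. Against input, Ser5 stood at 1.07 (0.591 to 1.95) in untreated cells and at 7.38 (4.77 to 11.9) after LPS, and with scaling to tags outside the peaks at 2.04 (1.12 to 3.71) and 15.1 (9.77 to 24.3). Leaving out starts that are not unique at 30 bases left 12 untreated, 105 LPS and 16 input tags and a ratio of 10.7 (5.85 to 21.3).

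Around the Ifi204 start, in contrast, the 3 libraries held 13, 10 and 2 tags within 1 kb on each side. LPS Ser5 there was 0.937 times untreated Ser5 (0.368 to 2.31), while over the rest of the gene body it was 7.21 (4.66 to 11.6). The density near the start was 5.04 times (2.36 to 10.3) that of the rest of the gene without LPS and 0.656 times (0.308 to 1.24) with it, and 0.809 (0.0925 to 3.28) in input, so the intervals of the Ser5 libraries did not overlap. The peaks followed the same distribution. The untreated list had a single Ifi204 peak, at the start site (chr1:175697025-175697234, score 111.54, where the score is minus 10 times the log10 of the MACS p-value). The LPS list had 6 peaks, all between 13.08 and 19.17 kb downstream of the start, with a top score of 209.97 (chr1:175678146-175678784), and none at the start.

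The countable part of Ifi204 is uneven. From the first to the last of 4 equal parts of the gene, 3.69%, 4.59%, 33.4% and 50.7% of start positions were unique at 30 bases, and the LPS library had 10, 16, 48 and 73 tags there. The untreated library had 3, 1, 7 and 15 tags in the same parts, and the input had 2, 6, 5 and 11. The LPS count was thus higher in each part, with ratios of 4.06 (1.05 to 23.0), 19.5 (3.03 to 818), 8.36 (3.76 to 21.9) and 5.93 (3.37 to 11.1). Near the start, where only 4.70% of positions were unique at 30 bases and 14.1% at 45 bases, the longer tags of the untreated library had more positions to fall on. Restricted to starts unique at 30 bases, 4 untreated tags and 1 LPS tag remained in that window, too few for a comparison. The position of the LPS peaks followed the unique part of the gene, and the part of uniqueness in their position was not tested.

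**Figure D2:**
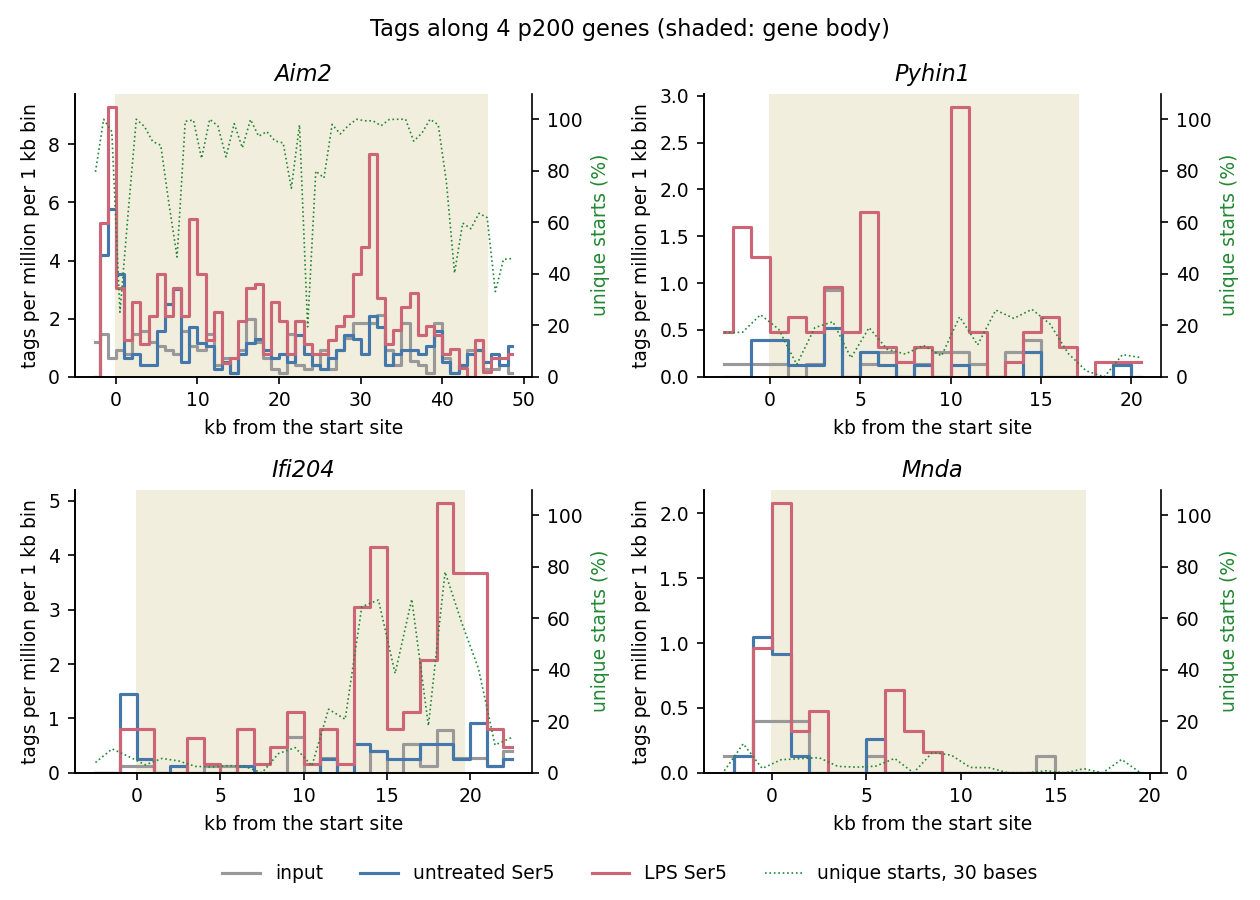
TPM in bins of 1 kb (left axis) against the distance from the start site in kb for Aim2, Pyhin1, Ifi204 and Mnda, with untreated Ser5 in blue, LPS Ser5 in red and input in grey; the dotted green line is the percentage of start positions unique at 30 bases (right axis), the shaded area is the gene body, and Aim2 is drawn from its busiest start. In Ifi204 the LPS tags rise where the unique share rises, beyond 13 kb, and in Aim2 both Ser5 libraries are high around the start.

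Pyhin1 (chr1:175560990-175578059, plus strand, 17.07 kb) encodes another member with a pyrin and a HIN domain, and the human gene of the same symbol is also called IFIX. It had 16 tags in untreated Ser5, 66 in LPS Ser5 and 23 in input. LPS Ser5 was again the high library, and untreated Ser5 lay at 0.688 (0.340 to 1.36) of the input, or at 1.31 (0.646 to 2.59) with scaling to tags outside the peaks, so that neither interval excluded 1. The densities were 0.123 (0.0703 to 0.200), 0.619 (0.478 to 0.787) and 0.179 (0.113 to 0.268) TPM per kb, giving a ratio of LPS to untreated of 5.03 (2.88 to 9.30) and of LPS to input of 3.46 (2.12 to 5.83). LPS Ser5 exceeded untreated Ser5 by 2.44 times (1.04 to 6.16) in the first of 4 equal parts of the gene and 26.8 (4.33 to 1107) in the third, where a single untreated tag stood against 22 LPS tags. Within 1 kb of the start there were 6 untreated, 11 LPS and 2 input tags, a ratio of 2.23 (0.757 to 7.36) whose interval includes 1.

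Pyhin1 was the only member with a peak in the LPS list and none in the untreated list, a pattern that 1.45% of all protein-coding genes had. Its 3 LPS peaks lay at the start (chr1:175560868-175561026, score 71.69), between 5.75 and 6.05 kb (score 80.2) and between 10.59 and 10.83 kb downstream (score 88.0). The peak at the start covered the last part of the window printed above, which holds the NF-kB motif.

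Aim2 (plus strand) is annotated over 115.2 kb (chr1:175281010-175396171) because 1 transcript begins inside the antisense gene Cadm3. Over this whole span it had 481 tags in untreated Ser5, 751 in LPS Ser5 and 653 in input, or 0.548 (0.500 to 0.600), 1.04 (0.970 to 1.12) and 0.753 (0.696 to 0.813) TPM per kb. Untreated Ser5 was below input at 0.729 times (0.646 to 0.821), but above it at 1.39 times (1.23 to 1.56) with scaling to tags outside the peaks, and LPS Ser5 was above input on both scales, at 1.39 (1.25 to 1.54) and 2.84 (2.55 to 3.16) times. LPS Ser5 stood at 1.90 times (1.69 to 2.14) untreated Ser5, above that of 93.5% of the genes tested. The outermost start had 1 untreated, 0 LPS and 2 input tags within 1 kb, and for 0 tags the interval of the density reaches 0.295 TPM per kb. Of the 7 annotated starts, the one at chr1:175350729 held the most Ser5, with 71 untreated, 77 LPS and 12 input tags.

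Measured from this busiest start to the end of the gene, a choice made after the values were seen, Aim2 had 349 untreated, 580 LPS and 325 input tags. The densities there were 1.01 (0.905 to 1.12), 2.04 (1.88 to 2.22) and 0.949 (0.849 to 1.06) TPM per kb, and LPS Ser5 was 2.03 times (1.77 to 2.32) untreated Ser5, just past the rule. In the 68.72 kb before the window at this start, LPS Ser5 was at 0.422 (0.337 to 0.524) of the input and untreated Ser5 at 0.269 (0.210 to 0.342), both lower than over the span from the busiest start, where they were 2.15 (1.87 to 2.47) and 1.06 (0.911 to 1.24). Around the busiest start the libraries differed little after LPS, with a ratio of 1.32 (0.945 to 1.85), but both stood above input, 5.85 times (3.15 to 11.9) for untreated and 7.73 times (4.18 to 15.6) for LPS Ser5. Over the rest of the gene LPS Ser5 was 2.12 times (1.85 to 2.44) untreated Ser5. The density at the start was 4.90 times (3.73 to 6.35) that of the rest without LPS and 3.05 times (2.37 to 3.87) with it, and 0.838 times (0.429 to 1.48) in input. Since this start was picked for its Ser5 tags, the choice itself favours a high Ser5 value there, against input and against the rest. The intervals leave this out.

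Aim2 had 3 peaks in the untreated list and 10 in the LPS list. The strongest of either list lay across the busiest start, at chr1:175350422-175350872 with a score of 545.64 in untreated cells and at chr1:175350446-175350993 with 516.91 after LPS. Both lists had a peak just upstream, within 1.71 kb of the busiest start, that lay across another annotated Aim2 start (chr1:175349327). Both also had a peak about 7 kb downstream, between 6.77 and 7.17 kb after LPS. The other LPS peaks ran from 5.07 to 36.06 kb downstream and had no counterpart in the untreated list, and the top score among them was 187.89. Aim2 is the member that the tags can be placed on almost throughout, but of the window at its busiest start only 60.1% of positions were unique at 30 bases and 71.5% at 45 bases, so that the untreated library had more countable positions there too.

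Mnda (chr1:175826486-175843053, minus strand, 16.57 kb), the myeloid nuclear differentiation antigen, had only 10 untreated, 25 LPS and 8 input tags over its body. The densities were 0.0792 (0.0380 to 0.146), 0.241 (0.156 to 0.356) and 0.0641 (0.0277 to 0.126) TPM per kb. LPS Ser5 over the gene body was 3.05 times (1.41 to 7.11) untreated Ser5, and it was 3.77 times (1.65 to 9.66) the input. Within 1 kb of the start there were 15, 19 and 6 tags, a ratio of 1.54 (0.743 to 3.26), and beyond it 3, 12 and 5 tags. Only 3.40% of positions in this start window were unique at 30 bases and 12.3% at 45 bases. The untreated list had 1 peak at the start (chr1:175842962-175843172, score 72.22) and the LPS list had 2, 1 of which overlapped it (chr1:175842962-175843201, score 51.18). In the last of 4 equal parts of the gene, where 0.579% of positions were unique at 30 bases, no Ser5 tag was found. The annotation places Mndal over both Mnda and Ifi203 on the same strand, so that tags in Mnda and Ifi203 count for Mndal too and cannot be told apart.

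Ifi203 (chr1:175850538-175872803, minus strand, 22.27 kb) had 38 untreated, 64 LPS and 17 input tags. LPS Ser5 was highest and input lowest, at 0.224 (0.159 to 0.308), 0.460 (0.354 to 0.587) and 0.101 (0.0590 to 0.162) TPM per kb. It was the member with the highest untreated Ser5 relative to input, 2.21 times (1.22 to 4.18), which became 4.54 times (2.63 to 8.27) after LPS. With starts unique at 30 bases only, where the longer untreated tags have no more positions than the input tags, the untreated ratio to input was 1.27 (0.421 to 4.02), on 9 against 7 tags. The LPS density was 2.05 times (1.35 to 3.15) the untreated one, close to the rule, and it was 1.88 (1.22 to 2.94) with 1 tag counted per position and strand. On the same starts 9 untreated and 38 LPS tags remained, with LPS Ser5 at 5.15 times (2.45 to 12.1) the untreated one. In 4 equal parts of Ifi203 the LPS tags had ratios to untreated between 1.83 and 2.44, and only in the third part did the interval (1.04 to 4.37) leave out 1. Neither list had a peak in Ifi203, and its start window held 4, 5 and 3 tags, under the minimum of 10.

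Ifi205 (chr1:175942129-175961886, minus strand, 19.76 kb) had 3 untreated, 12 LPS and 12 input tags, the fewest of the members in Ser5. LPS Ser5 was 4.87 times (1.32 to 26.9) untreated Ser5, past the rule, but LPS Ser5 was at 1.21 (0.495 to 2.93) of the input and untreated Ser5 at 0.247 (0.0448 to 0.916). All but 2 of its LPS tags lay in the first of 4 equal parts of the gene, as did 10 of the 12 input tags, and this is the part in which 76.7% of positions were unique at 30 bases, against 1.26% and 0.688% in the last 2 parts. Around the start there were 2, 8 and 10 tags, and neither list had a peak in Ifi205. With scaling to tags outside the peaks the ratios to input became 2.47 (1.01 to 6.00) after LPS and 0.470 (0.0852 to 1.74) in untreated cells, so whether Ifi205 had Ser5 above background after LPS could not be settled at this depth. Its promoter window is the one shown above that is nearly identical to those of Ifi204 and Mnda.

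**Figure D3:**
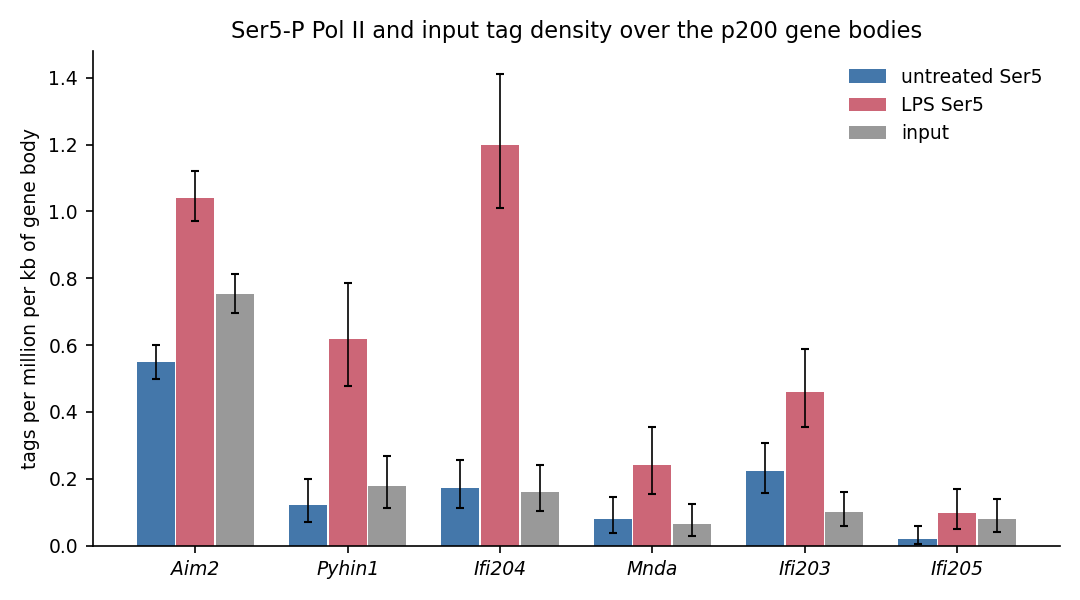
Density over the gene body in TPM per kb (y axis) of untreated Ser5, LPS Ser5 and input for the 6 p200 genes; bars are single libraries and error bars are exact 95% Poisson intervals for counting error. Over these annotated bodies LPS Ser5 is highest in Ifi204 (1.20) and Aim2 (1.04), and in Ifi205 (0.0972) it is level with the input (0.0806).

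By LPS density over the annotated gene body the members stood in the order Ifi204, Aim2, Pyhin1, Ifi203, Mnda and Ifi205. The intervals of the neighbours Ifi204 and Aim2 overlapped and those of Aim2 and Pyhin1 did not, while those of Pyhin1 and Ifi203 overlapped, as did those of Ifi203 and Mnda by a small margin and those of Mnda and Ifi205. In untreated cells Aim2 was highest and Ifi205 lowest, and the intervals of Ifi203, Ifi204 and Pyhin1 overlapped. This order depends on the start taken for Aim2, which from its busiest start had 2.04 (1.88 to 2.22) TPM per kb after LPS, above the 1.20 (1.01 to 1.41) of Ifi204. It also depends on how much of each gene can be counted. Over starts unique at 30 bases only, per kb of such starts, which is a measure added after the values were seen, LPS Ser5 was 3.79 (1.96 to 6.62) TPM per kb in Mnda, 3.71 (3.03 to 4.49) in Ifi204, 3.17 (2.24 to 4.34) in Ifi203, 2.07 (1.44 to 2.88) in Pyhin1, 1.16 (1.08 to 1.25) in Aim2 and 0.370 (0.184 to 0.661) in Ifi205. On this scale Aim2 moved from the second to the fifth place and Mnda from the fifth to the first, although the value of Mnda rested on 12 tags over 0.507 kb. The Aim2 value covered its whole annotated span, so its place also depends on the start taken. From the busiest start it was not computed on this scale. Untreated Ser5 on the same scale was 0.615 (0.281 to 1.17) in Ifi203, 0.576 (0.523 to 0.632) in Aim2, 0.348 (0.180 to 0.607) in Ifi204, 0.243 (0.0789 to 0.567) in Pyhin1 and 0.0827 (0.0171 to 0.242) in Ifi205, and no tag was found in Mnda, for which the interval reaches 0.955. The input ranged from 0.334 in Ifi205 to 0.820 in Aim2, a narrower span than the 0.0641 to 0.753 TPM per kb of whole gene bodies.

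At the start sites, 4 of the 6 members reached 10 Ser5 tags. Pyhin1 and Ifi205 were past the rule as higher and none was lower, while 5.61% of the 12536 genes tested at the start were higher and 14.1% lower, with a median ratio of 0.831. The median over the 4 members was 1.89. Both calls rested on few tags, with intervals that include 1 on this scale. For Ifi205 the ratio of 4.87 (0.973 to 47.1) was at the edge, since it became 5.25 (1.05 to 50.7) with scaling to tags outside the peaks and 10.1 (1.36 to 449) with 1 tag per position and strand, on 8 LPS tags against 1. Peaks were found in 3 members in the untreated list (Aim2, Ifi204 and Mnda) and in 4 in the LPS list (these and Pyhin1), against 54.1% and 51.4% of all protein-coding genes. The share of members with a peak was therefore near the background in both lists.

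The cluster contains other genes of the family and unrelated ones, and newer names given here come from the RefSeq gene table of assembly GRCm38.p6. Of the 18 other genes annotated within it or within 100 kb on each side, 9 reached 10 tags, of which 5 were past the rule as higher after LPS and 1 as lower, with a median ratio of 2.12. AI607873, which RefSeq names Ifi207 and which is thus also of the p200 family, had a higher Ser5 density than any of the 6 members in both libraries, 1.69 TPM per kb untreated and 5.82 after LPS, with 232 untreated, 657 LPS and 80 input tags over 18.07 kb, a ratio of LPS to untreated of 3.45 (2.97 to 4.03) and 17 peaks after LPS against 6 before. Ifi202b, which encodes a p200 protein without a pyrin domain, had 51, 269 and 62 tags, a ratio of 6.43 (4.75 to 8.85), and 10 peaks after LPS against 0 before. BC094916 had 5, 30 and 17 tags and a ratio of 7.31 (2.81 to 24.1), and Gm16340, named Ifi203-ps and classed as a pseudogene by RefSeq, had 15, 36 and 15 tags and a ratio of 2.92 (1.56 to 5.75). Mndal, also among the 5, had 66, 115 and 47 tags and stood at 2.12 (1.56 to 2.92), which is the median given above. Its body covers Mnda, with 10 untreated and 25 LPS tags, and nearly all of Ifi203, with 38 and 64. Mndal is therefore not separate from these members, and its ratio without their tags was not computed. Pydc3, now Ifi208, was the gene past the rule as lower, with 8 untreated, 3 LPS and 15 input tags and a ratio of 0.457 (0.0781 to 1.90) whose interval includes 1, and both Ser5 libraries lay below input on the scale of all tags. Its body was unique at 13.5% of start positions at 30 bases, the LPS tag length, and at 30.1% at 45 bases, the untreated one. The part of tag length in its lower ratio was not tested. Olfr418-ps1, Cadm3 and Gm4955 (now Ifi206), all on the Aim2 side of the cluster, were not past the rule, and the 9 genes with fewer than 10 tags over the body were not compared there. At the start sites, 3 of these neighbours were past the rule as higher, against 5.61% of all genes tested there. They were AI607873 at 3.08 with 87 untreated and 220 LPS tags, Ifi202b at 5.48 (2.22 to 16.2) and the olfactory receptor gene Olfr433 at 7.92 (2.75 to 31.2). Of the other neighbours only Olfr418-ps1 and Gm16340 reached 10 tags at the start, and neither was past the rule. Olfr433, named after its values were seen, had 4 untreated, 26 LPS and 11 input tags within 1 kb of its start and only 2 in each library over its body, with a peak after LPS (chr1:175970949-175971478, score 81.95) and none before. The deposited lists had 14 peaks in the whole interval for untreated cells and 59 after LPS. Of the 59, 17 belonged to AI607873 and 10 to Ifi202b. The change in the number of peaks over the whole genome was not computed for comparison.

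**Figure D4:**
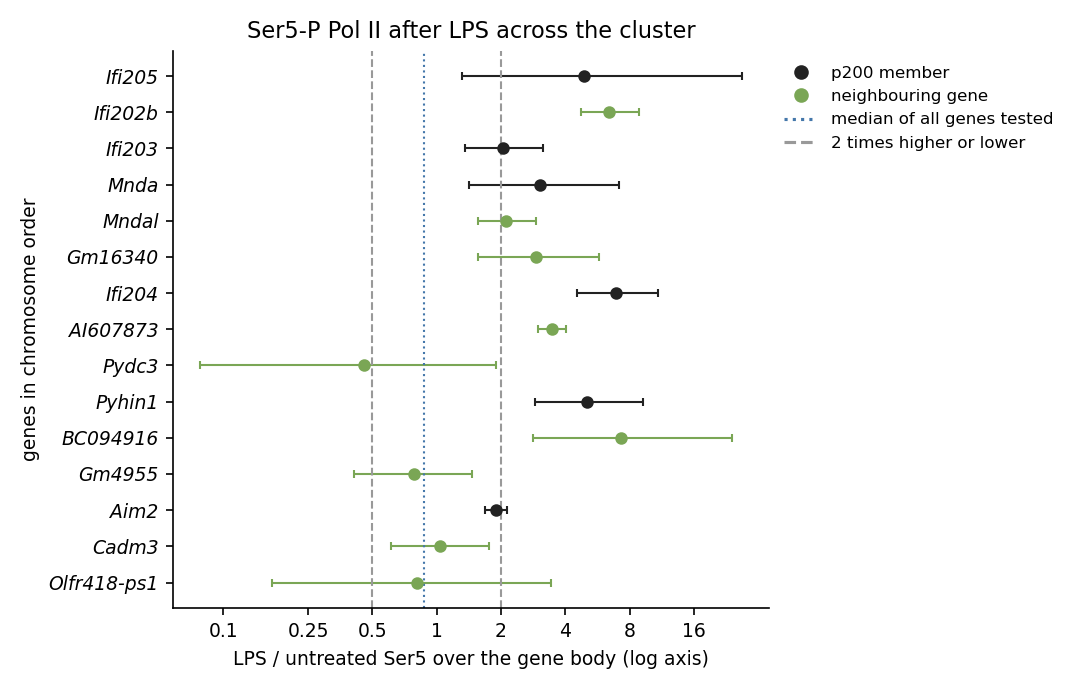
Ratio of LPS to untreated Ser5 over the gene body (x axis, log scale) for the 6 p200 genes (black) and the 9 neighbouring genes with at least 10 tags (green), in chromosome order, with exact 95% counting intervals; dashed lines mark 2 times higher and lower and the dotted line the median of all genes tested (0.873). From BC094916 to Ifi205 all genes shown except Pydc3 lie above 2, and the genes on the Aim2 side of BC094916 lie at 1.90 or below.

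For comparison with genes under the same stimulus, 45 of 46 listed interferon-induced genes were found and tested, and 38 were past the rule as higher and 0 as lower, with a median ratio of 3.80. The largest ratios were those of Ccl5 (396), Rsad2 (90.6), Cxcl10 (89.0) and Gbp2 (45.8), and the smallest were those of Ifitm3 (1.56) and Oas1g (1.62), antiviral genes that had 244 and 97 tags in untreated Ser5 against 15 and 25 in input. The median of the 6 members (3.96) lay near that of this list, and no member came near the 4 largest ratios. Of the genes that act with or beside the DNA sensors, 27 of 28 listed were found and tested, 10 were higher and 4 lower, and the median was 1.13. Il1b, the cytokine that caspase-1 matures, stood at 44.5 times, Nlrp3, another inflammasome sensor, at 4.45, the Z-DNA sensor Zbp1 at 4.42 and the cytokine Il18 at 4.37. The adaptor through which Aim2 acts, Pycard, stood at 0.391 (0.305 to 0.496) with 284 untreated and 91 LPS tags, and the lysosomal nuclease Dnase2a at 0.258 (0.221 to 0.300).

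The genes whose densities over the 3 libraries lay closest to those of Ifi204, the member with the highest LPS density over the annotated gene body, were Iigp1, Gm4902 and Il7, among 14335 genes with enough tags. Their Euclidean distances on the log2 scale of density plus 0.1 were 0.60, 0.75 and 0.80. Gm4902 is the gene that RefSeq now names Phf11b, the 1 listed interferon-induced gene not found by its symbol. Iigp1, an interferon-inducible GTPase, had 0.134 untreated, 0.810 LPS and 0.128 input TPM per kb, Gm4902 had 0.168, 0.738 and 0.0978, and the cytokine gene Il7 had 0.0819, 1.29 and 0.277. With 3 libraries this likeness describes low Ser5 before and raised Ser5 after LPS and nothing more.

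**Figure D5:**
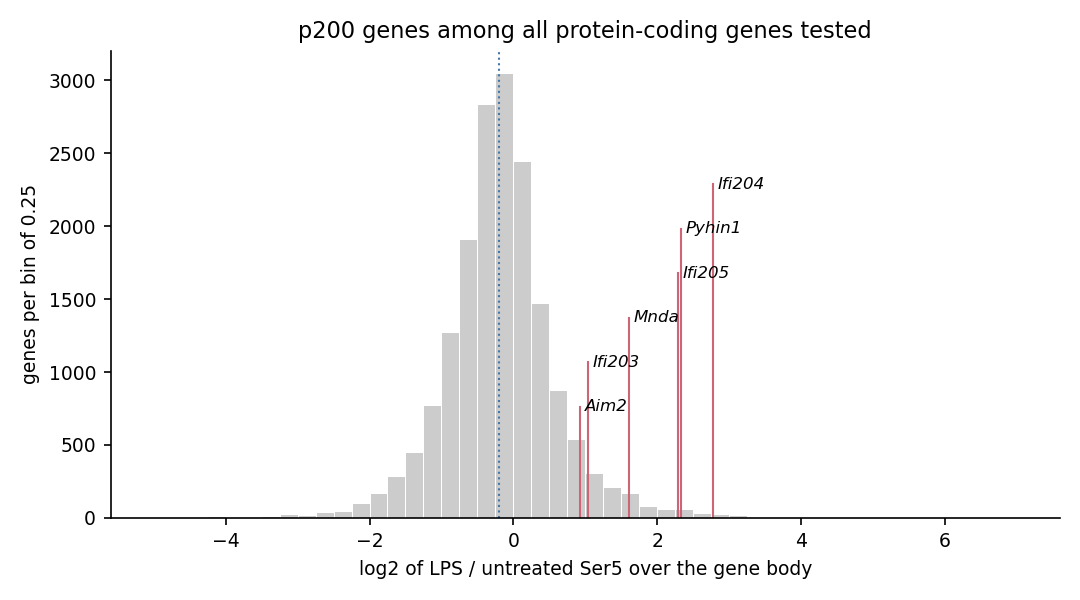
Histogram of the log2 ratio of LPS to untreated Ser5 over the gene body for the 17386 protein-coding genes tested (bins of 0.25, genes beyond the axis counted in the end bins), with the p200 genes marked by red lines and the median of all genes (−0.20) by a dotted line. Aim2 (0.93) and Ifi203 (1.04) stand at the upper flank and Ifi204 (2.78) in the tail.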

How the data were processed

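Ser5 and input tags of 1 library per group were analysed. Per the labels and the study's methods, the authors trimmed 76-base reads, aligned them to mm9 with Bowtie and called peaks in each Ser5 library, with input as the control, in MACS at a p-value threshold of 1e-05. Versions are not given in the sources used here. The deposited tag files hold positions and strands with duplicates kept, and the deposited peak lists hold a score of minus 10 times log10 p, used only to select peaks. Tag positions were read as counted from 0, because more tags then fell at unique starts than as deposited in each library. A shift by another base gave slightly more such tags in the untreated library (91.7% against 91.5%). It gave fewer in the LPS (87.0% against 87.3%) and input (90.9% against 91.8%) libraries.

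Samples were grouped by their labels, replicates did not exist, and no test was run. Tags were counted by their 5′ end in gene bodies (outermost start to end) and within 1 kb of the outermost start, and divided by the library total on the autosomes and X. Genes with at least 10 Ser5 tags were compared by a rule of size (2 times higher or lower, 0 tags set to 0.5). Counts have exact Poisson and ratios exact conditional 95% intervals. A peak belonged to a gene if it overlapped the body or start window by 1 bp. Uniqueness at 30, 36 and 45 bases was computed on the NCBIM37 reference (mm9) with at most 2 mismatches on both strands. Promoters were aligned in pairs with free end gaps (Biopython 1.88). Python 3.11.15, numpy 2.4.6, pandas 2.3.3 and scipy 1.17.1 were used, and the intervals and the uniqueness search were tested on simulated data.

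The members and gene lists were chosen with earlier results of these data known. All members were named, as were neighbouring genes past the rule over the body, the 4 largest and 2 smallest ratios of each list among genes with at least 50 tags, and the 3 genes nearest to Ifi204. A comparison of the members' proteins was not made. Alternatives were duplicates removed, tags moved by 75 bp, scaling to tags outside peaks, starts unique at 30 bases, a minimum of 20 tags, 0 tags set to 1, other body and start definitions and a stricter peak threshold of 1e-10.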

Additional observations from a re-analysis of the deposited data

How the results depend on the processing

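Over the gene body, 4 to 6 members were at least 2 times higher and 0 lower under every alternative run. Ifi203 was lost with 1 tag per position and strand, Ifi205 with a minimum of 20 tags, and Aim2 was gained with scaling to tags outside the peaks (2.05), with starts unique at 30 bases (2.02) and from the busiest start (2.03), the last chosen after seeing the data. At the start sites the count of 2 members past the rule as higher became 0 with 1 tag per position and strand and with a minimum of 20 tags, and 1 (Pyhin1) with tags moved by 75 bp, with starts unique at 30 bases and with a window of 500 bp. The ratio of Ifi205 stayed at 4.27 or more wherever it had a value, and Ifi205 dropped out by having fewer tags than the minimum, whereas Pyhin1 fell to 1.90 with 1 tag per position and strand. The 4 members with an LPS peak became 2 at a p of at most 1e-10 (Aim2 and Ifi204) and 2 with the start window only (Pyhin1 and Mnda). That window lies at the outermost annotated start, so the Aim2 peak across its busiest start falls outside it. Of 133 alternative values of single members, 122 moved by less than their interval, 11 moved further. No ratio of LPS to untreated over a gene body crossed 1, but that of the Ifi204 start window ranged from 0.305 to 1.06. Scaling to tags outside the peaks raised the median log2 ratio of all genes by 0.11 and turned untreated Ser5 of Aim2 from below input (0.729) to above it (1.39). The cause was not tested. No paired analysis was possible because each group held 1 library, and no replicate could be left out. Depth limits Ifi205, Mnda and every start window other than the busiest of Aim2, and uniqueness limits all members, in Aim2 mainly at the busiest start.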
